A study of Mus musculus with 18 samples.

Results

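The mature microRNAs (miRNAs) miR-122-5p, miR-122-3p, miR-192-5p, miR-194-5p and miR-215-5p, known for their expression in liver, kidney and gut, were followed through normal mouse adrenal gland and 2 transgenic neuroblastoma models. They were selected by name, as 5 of the 1966 miRNAs in the table, from a set drawn up when their levels in these groups were already known. All differences between groups given for these 5 are therefore a description of the libraries, without a p-value. Small RNA was sequenced from tissue of 3 wildtype adrenal glands (AG, labelled CRE -), 7 tumors of R26 IGF2BP1 mice (TI) and 8 tumors of R26 IGF2BP1/MYCN mice (TIM). In both tumor models the transgenes sit at the Rosa26 locus behind a loxP-flanked stop cassette, which a Dbh-driven iCRE removes in cells of the sympatho-adrenal lineage. TI comprised 6 tumors labelled IGF2BP1 +/+, CRE + and 1 labelled IGF2BP1 +/-, CRE +, whereas all TIM tumors were labelled IMP1/MYCN, CRE +, where IMP1 is another name of IGF2BP1. The labels placed 1 TI and 2 TIM tumors in the adrenal gland and 1 TIM tumor at the spine, and gave no site for the others. Neither genotype nor site could be tied to a single library, and ages are not given in the labels. Libraries are called AG-a to AG-c, TI-a to TI-g and TIM-a to TIM-h.

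A miRNA is cut from a hairpin as a duplex, and 1 strand (5p or 3p) is usually retained in the silencing complex while the other is degraded. Bases 2 to 8 of the retained strand, the seed, pair with target transcripts. miR-122 is the abundant miRNA of hepatocytes. miR-192, miR-194 and miR-215 come from a pair of related clusters, each with 1 copy of miR-194, and are known from kidney, liver and intestinal epithelium. miR-192 and miR-215 form 1 seed family and are known p53-responsive miRNAs.

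The sequences of the second group are shown because they set what reads can tell apart. Of the 5 members, 3 had a mature entry in the RefSeq table for GRCm38.p6. Capitals mark the seed.
mmu-miR-192-5p: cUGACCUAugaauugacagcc
mmu-miR-215-5p: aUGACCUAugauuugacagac
mmu-miR-194-5p: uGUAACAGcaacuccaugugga
mmu-miR-194-2-3p: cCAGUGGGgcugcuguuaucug
mmu-miR-194-1-3p: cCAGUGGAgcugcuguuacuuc
miR-192-5p and miR-215-5p had the same seed, which no other mature miRNA of the RefSeq table shared. They differed at 3 of 21 positions, counted from the 5′ end, with C1A, A12U and C20A as changes from miR-192-5p to miR-215-5p. miR-194-5p had a seed of its own and was identical in both of its hairpins, so its reads do not show which hairpin they came from. The opposite strands of these 2 hairpins could be told apart, since they differed at 4 of 22 positions (G8A, U19C, C20U and G22C, from miR-194-2-3p to miR-194-1-3p), and they are added here as a readout that was not a member.

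In GRCm38 the 4 hairpins form 2 pairs on the plus strand. Mir194-2 (chr19:6264643-6264728) and Mir192 (chr19:6264844-6264932) are 115 bases apart. Mir194-1 (chr1:185313319-185313385) and Mir215 (chr1:185313581-185313692) are 195 bases apart. In the GENCODE annotation, used for names only, Mir194-1 and Mir215 lie within the lncRNA gene 2010103J01Rik, and on the opposite strand within Iars2, which encodes mitochondrial isoleucyl-tRNA synthetase. Mir194-2 overlaps the lncRNA gene Gm59786 in part, and Mir192 overlaps no other annotated gene.

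Library totals recovered from the values ranged from 21644743 to 23332704 reads in AG, 11802837 to 21268124 in TI and 11641696 to 23435621 in TIM. Levels are CPM, the reads of a miRNA scaled to a common library total, with totals corrected by the trimmed mean of M-values (TMM), and 3 reads were worth 0.101 to 0.272 CPM. The TMM factors ranged from 0.70 to 0.93 in TI but up to 1.85 in TIM. Reads of miR-148a-3p made up 4.19 to 6.94% of each AG library. They made up 2.29% of TI-e, 30.1 to 61.9% of the other TI libraries and 6.53 to 44.2% of the TIM libraries. The neuronal miRNAs miR-124-3p, miR-9-5p and miR-9-3p, which should mark neuroblastoma tissue, were higher than in AG in both tumor groups (3 of 3 called, limma adjusted p from 2.4e-07 to 8.5e-05). Of all miRNAs tested, 26.4% were called higher in TI and 25.5% in TIM. This list and those below were chosen with earlier results of these data known, so their calls are a description. Some tumor libraries stood apart from the rest of their group in miRNAs of other tissues. TIM-a carried 22999 CPM of striated muscle miRNAs against 78.1 to 192 CPM in the other TIM libraries. TI-e and TIM-d carried exocrine pancreas miRNAs at 74.6 and 156 CPM, against at most 2.31 and 9.59 CPM in the rest of their groups. AG itself carried 51.1 to 73.7 CPM of these miRNAs. The fitted difference of each member without TI-e, TIM-a and TIM-d is therefore given beside the one with all libraries.

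Both tumor groups had lower mean levels of all 5 members than AG, and 4 of the 5 were lower in every tumor library than in every AG library, as were 17.9% of all miRNAs tested. By ratio of mean CPM, miR-122-5p differed 80.0-fold in TI and 54.2-fold in TIM, and miR-122-3p, which had few reads, 40.7-fold and 66.6-fold. miR-192-5p differed 6.99-fold and 5.46-fold, whereas miR-194-5p and miR-215-5p differed by 2.77-fold to 4.70-fold. In bulk tissue fewer cells of a type and less RNA per cell cannot be told apart.

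miR-122-5p was among the more abundant miRNAs of AG, at rank 40 to 78 of the table. Its level was 2592 CPM in AG-a, 1169 CPM in AG-b and 780 CPM in AG-c, a mean of 1514 ± 954 CPM (SD, n = 3). In TI the level was 4.68 CPM in the lowest library, TI-a, 17.2 CPM in the median library and 48.1 CPM in the highest, TI-g. In TIM it was 4.25 CPM in the lowest, TIM-d, with a median of 18.2 CPM and 82.4 CPM in the highest, TIM-e. The groups were far apart, since the highest tumor library, at 82.4 CPM, stood far below the lowest AG library, at 780 CPM. Within each group the spread was also wide, with coefficients of variation of 63.0% in AG, 80.3% in TI and 101% in TIM. The mean was 18.9 ± 15.2 CPM in TI (n = 7) and 27.9 ± 28.1 CPM in TIM (n = 8). On the log2(CPM + 1) scale the fitted difference from AG was -6.44 (SE 0.83) in TI and -6.16 (SE 0.81) in TIM, in each case the second lowest of the 726 miRNAs tested. Without TI-e, TIM-a and TIM-d the differences were -6.48 and -6.13. Every tumor library kept reads of this strand, from 64 in TI-a to 1845 in TIM-e.

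miR-122-3p, the strand of the same hairpin that is mostly discarded, was rare in all groups. It had 5.18, 2.0 and 1.71 CPM in AG-a, AG-b and AG-c, which were 112, 43 and 37 reads. The 7 TI libraries held 0 to 3 reads and the 8 TIM libraries 0 to 4, so every AG library was above every tumor library. It passed the filter on low values only through AG. AG and the tumors therefore had to differ in this miRNA, and the intervals given next do not test that difference. With reads pooled over the libraries of a group and divided by the pooled TMM-corrected totals, AG was at 37.9 times the level of TI (exact 95% interval 18.9 to 89.1, 192 against 8 reads) and at 57.8 times the level of TIM (29.8 to 128, 192 against 9 reads). These intervals and those below cover counting error only, since reads were pooled over libraries, and leave out the spread between libraries. The reads carry no molecular identifiers known from the sources used here. Copies of 1 molecule could therefore not be told apart, and the intervals may be too narrow. The fitted differences of -1.79 (SE 0.18) and -1.82 (SE 0.18) are damped by the pseudocount of 1, and they were -1.79 and -1.81 without the 3 libraries.

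The share of 3p among all reads of the miR-122 hairpin could be compared without any scaling between libraries. It was 0.196% in AG (192 of 98183 reads, exact Clopper-Pearson 95% interval 0.169 to 0.225), 0.412% in TI (8 of 1941 reads, 0.178 to 0.81) and 0.169% in TIM (9 of 5317 reads, 0.0774 to 0.321). All intervals overlapped, but overlap of intervals is no test, and a difference in strand use was not tested. The hairpin gene, Mir122, lies in an exon of the lncRNA gene Gm29966 in the GENCODE annotation.

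miR-192-5p was the most abundant member in every library. The AG libraries held 4277, 2676 and 2628 CPM (mean 3194 ± 939, n = 3), which put it at rank 33 to 42 of the table. In TI the level was 298 CPM in TI-a, 235 in TI-b, 399 in TI-c, 416 in TI-d, 1059 in TI-e, 258 in TI-f and 535 in TI-g. TI-e stood above the other 6, which reached 535 CPM at most, yet it remained below every AG library. The TIM libraries ranged from 323 CPM in TIM-d over a median of 542 to 894 CPM in TIM-e. The means were 457 ± 285 CPM in TI and 584 ± 183 CPM in TIM, and neither group overlapped with AG. The fitted difference from AG was -2.95 (SE 0.40) in TI and -2.47 (SE 0.40) in TIM, and -3.18 and -2.41 without the 3 libraries.

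miR-194-5p was present at a lower level and differed less. AG-a, AG-b and AG-c held 189, 138 and 154 CPM (mean 160 ± 26.3), the tightest group of any member. The TI libraries ranged from 32.0 CPM in TI-b over a median of 43.9 to 103 CPM in TI-e, and the TIM libraries from 31.0 CPM in TIM-g over a median of 47.8 to 108 CPM in TIM-b. TI-c (85.9 CPM), TI-e, TIM-b and TIM-e (89.8 CPM) came nearest to AG, but no tumor library reached it. The fitted difference was -1.64 (SE 0.43) in TI and -1.58 (SE 0.42) in TIM, and -1.80 and -1.64 without the 3 libraries.

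miR-215-5p, which has the miR-192 seed, was the 1 member whose groups overlapped. It had 9.29 CPM in AG-a, 15.9 in AG-b and 36.3 in AG-c, an order opposite to that of miR-122-5p. In TI it had 2.05 CPM in TI-a, 2.01 in TI-b, 12.6 in TI-c, 2.35 in TI-d, 8.71 in TI-e, 20.9 in TI-f and 1.60 in TI-g. TI-c and TI-f lay within the AG range, and 5 of 7 TI libraries lay below it. In TIM the range was 1.88 to 10.8 CPM with a median of 3.21, and 7 of 8 libraries lay below all AG libraries, the exception being TIM-e. The mean was 20.5 ± 14.1 CPM in AG, 7.17 ± 7.38 in TI and 4.36 ± 3.01 in TIM. The fitted difference was -1.68 (SE 0.65) in TI and -1.96 (SE 0.64) in TIM, and -1.80 and -1.87 without the 3 libraries.

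**Figure D1:**
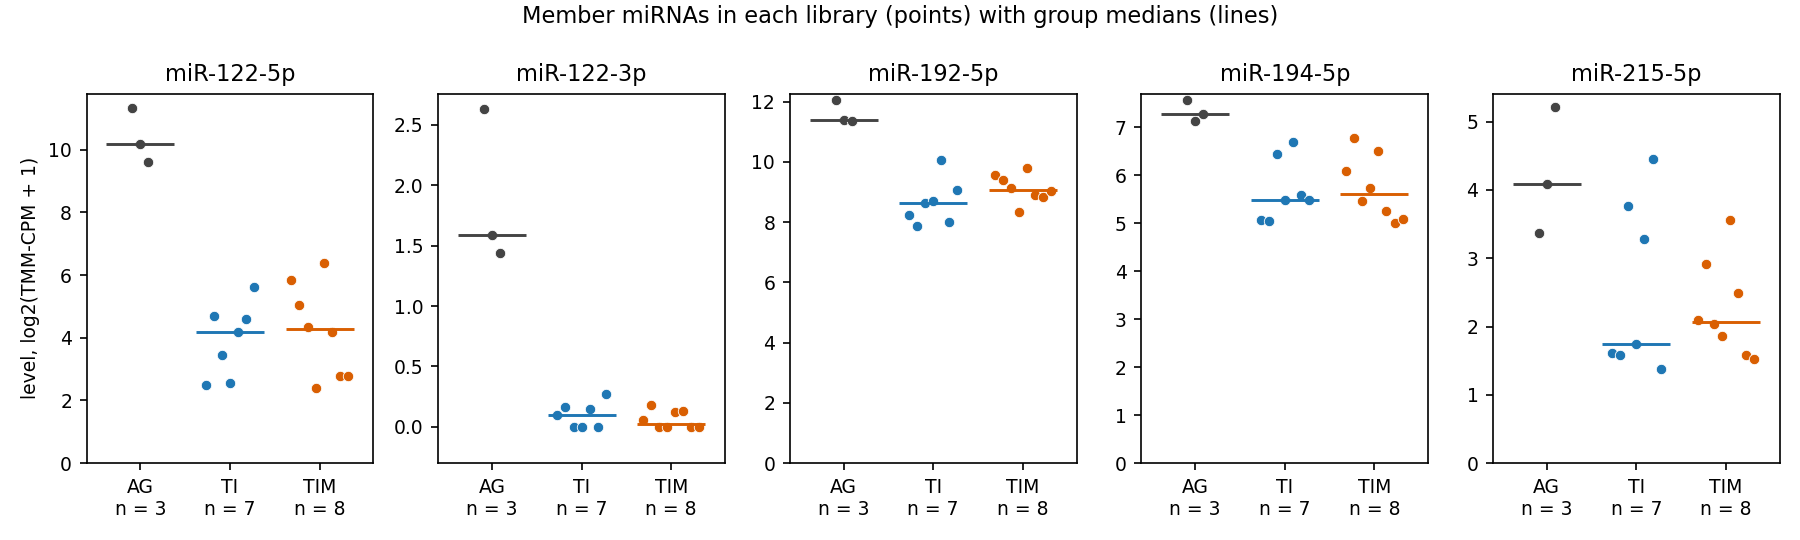
Level of each member on the log2(TMM-CPM + 1) scale in AG (n = 3), TI (n = 7) and TIM (n = 8), each point 1 library and each line a group median, with a separate vertical axis for each miRNA. AG lies above all tumor libraries for every member except miR-215-5p, where TI-c, TI-f and TIM-e reach the AG range.

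All 5 members passed the threshold of 0.05 on the limma adjusted p as lower in TI and, likewise, as lower in TIM. Of these, miR-122-3p had passed the filter only through AG. The call of miR-215-5p in TI was lost under 11 of the other settings and left-out libraries, edgeR, DESeq2 and the model of 2 groups among them. Among the 726 miRNAs tested, 29.3% were called lower and 26.4% higher in TI, and 25.9% lower and 25.5% higher in TIM. Every AG library was above every TI library for 4 of the 5 members, against 24.4% of all miRNAs tested, and above every TIM library for 4 of 5, against 22%. Since the members were chosen with these contrasts known, nothing is read from these counts. The median difference over the members was -1.79 in TI and -1.96 in TIM, beside -0.01 and 0.18 over all miRNAs tested.

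TIM and TI overlapped in all 5 members. The fitted difference of TIM from TI was 0.28 (SE 0.62) for miR-122-5p, -0.04 (SE 0.14) for miR-122-3p and 0.48 (SE 0.30) for miR-192-5p. It was 0.05 (SE 0.32) for miR-194-5p and -0.28 (SE 0.49) for miR-215-5p. None of the 5 passed the limma threshold, while 3.44% of all miRNAs were called higher and 1.79% lower in TIM. None of the 5 had an unadjusted limma p under 0.05, as 165 of all 726 miRNAs tested did. edgeR and DESeq2 called 0 of the 5 as well. For miR-192-5p the difference was 1.03 on CPM without the TMM factor, where it passed the threshold and where the median of all miRNAs tested was itself 0.49. edgeR and DESeq2 on the reads gave -0.86 and -0.95 for miR-215-5p, and -0.64 and -0.71 for miR-122-3p. The standard errors leave room for differences of over 1 log2 unit in miR-122-5p, miR-192-5p and miR-215-5p, so these data do not show that the models are alike in them.

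**Figure D2:**
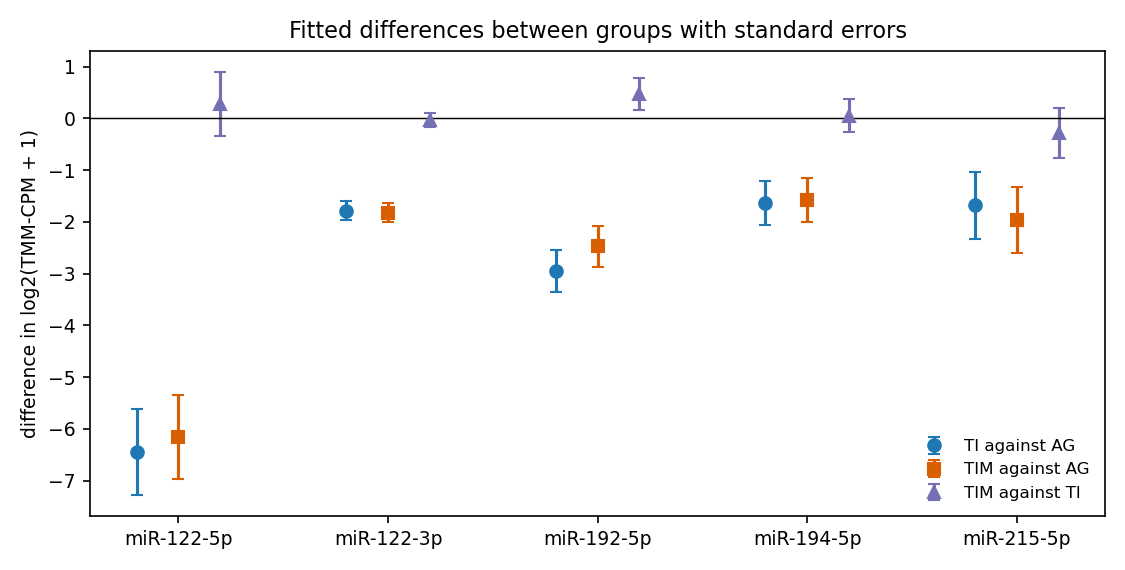
Fitted difference in log2(TMM-CPM + 1) between groups for each member, with bars for the standard error of the limma fit on 18 libraries. Differences from AG run from -6.44 for miR-122-5p in TI to -1.58 for miR-194-5p in TIM, and the differences of TIM from TI lie between -0.28 and 0.48.

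Ratios of reads within a library do not depend on the scaling between libraries. miR-192-5p and miR-194-5p, whose hairpins Mir192 and Mir194-2 are neighbours, did not keep 1 ratio. There were 17.1 to 22.6 reads of miR-192-5p per read of miR-194-5p in AG, 4.65 to 12.3 in TI and 6.18 to 15.7 in TIM, so each of the 15 tumor libraries lay below each AG library. The ratio of miR-122-5p to miR-192-5p was 0.297 to 0.606 in AG, 0.0117 to 0.106 in TI and 0.0112 to 0.0922 in TIM, again with no overlap. The ratios to miR-215-5p overlapped. There were 72.4 to 460 reads of miR-192-5p per read of miR-215-5p in AG, 12.4 to 335 in TI and 83.1 to 277 in TIM. There were 4.24 to 20.4 reads of miR-194-5p per read of miR-215-5p in AG, 2.26 to 27.3 in TI and 7.99 to 20.5 in TIM. These ratios rest on the same reads as the members' levels and are a description.

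**Figure D3:**
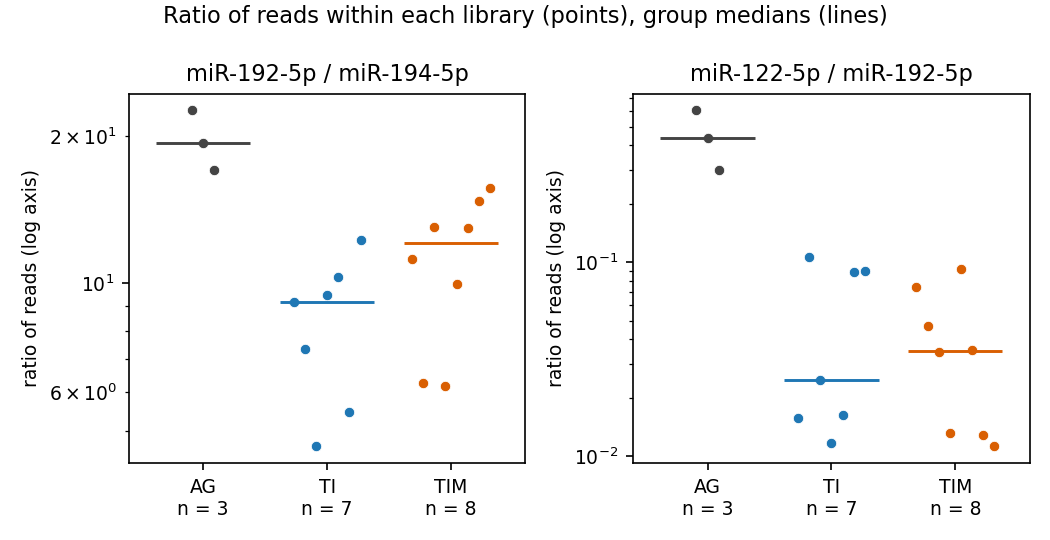
Reads of miR-192-5p per read of miR-194-5p (left) and reads of miR-122-5p per read of miR-192-5p (right) in each library, on log axes, with lines at the group medians. All 15 tumor libraries lie below the 3 AG libraries in both panels, with medians of 19.4, 9.15 and 12.1 on the left and 0.437, 0.0247 and 0.0349 on the right for AG, TI and TIM.

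The opposite strands of the member hairpins bear on which hairpin was used. They come from the same hairpins as the members and were chosen with earlier results known. Their calls are therefore a description and no independent support. miR-194-2-3p, from the hairpin next to Mir192, had 3.10, 1.59 and 2.73 CPM in AG, 0.0731 to 1.60 CPM in TI and 0.448 to 1.82 CPM in TIM. TI-g and the TIM libraries TIM-a and TIM-b reached the AG range. It was lower in TI by a fitted difference of -1.27 (SE 0.28, limma adjusted p = 0.00095) and in TIM by -0.82 (SE 0.27, limma adjusted p = 0.019). The call held under 20 of 20 other settings in TI (limma, edgeR or DESeq2 adjusted p from 0.00011 to 0.012). In TIM it held under 15 of 21 (adjusted p from 0.0084 to 0.20). The losses included edgeR, the fits without AG-a or AG-c, and the scaling that excluded miR-148a-3p (limma adjusted p = 0.20). miR-194-1-3p, from the hairpin next to Mir215, made up 2 of 162 reads of both miR-194 3p strands in AG (1.23%), 3 of 54 in TI (5.56%) and 3 of 188 in TIM (1.6%), too few to compare groups. miR-192-3p had 12 reads in all of AG, 0.00581% of the reads of its hairpin. miR-215-3p had 0 to 4 reads in each AG library and 21 reads in TI-f, where miR-215-5p was also at its highest TI level, against 0 to 3 reads in each of the other tumor libraries. These last 3 strands did not pass the filter and were not tested.

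Within the 15 tumor libraries the members varied together in part. The Pearson correlation of log2(CPM + 1) was 0.64 for miR-192-5p with miR-194-5p (Spearman 0.54), 0.65 for miR-194-5p with miR-215-5p (0.72), 0.48 for miR-122-5p with miR-192-5p (0.50) and 0.17 for miR-192-5p with miR-215-5p (0.18). The tumor libraries share the normalisation and come from both models, and these values are a description. By the rule for likeness of pattern, the Pearson correlation over all 18 libraries, which spans the gap between AG and tumors, named miR-3081-3p, miR-196a-1-3p, miR-10a-3p, miR-150-5p and miR-378d for miR-122-5p (0.92 to 0.93, among 397 miRNAs). For miR-192-5p it named miR-196a-1-3p, miR-10a-3p, miR-126a-3p, miR-3081-3p and miR-126a-5p (0.94 to 0.96). Within the tumors alone these correlations were 0.52 to 0.73 and 0.74 to 0.86. miR-150-5p is known from lymphocytes and miR-126a from endothelial cells. miR-126a-3p, the most abundant of these, had a mean of 39808 CPM in AG, 3574 CPM in TI and 4897 CPM in TIM.

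Markers of the tissues in which the members are known were read beside them. These lists, too, were chosen with earlier results of these data known, and their calls are a description. miR-802, a miRNA of liver, kidney, pancreas and gut, is given by both of its strands. They summed to 0.231 to 0.513 CPM in AG, 0 to 0.0880 CPM in TI and 0 to 7.12 CPM in TIM, and 0 of 2 passed the filter. The value of 7.12 CPM was that of TIM-d, to which miR-802-5p gave 5.46 CPM, and TIM-d had the lowest level of miR-122-5p and of miR-192-5p among the TIM libraries. miR-802-5p had 3 to 6 reads in each AG library, and both strands had 0 reads in 6 of 7 TI libraries.

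Of the exocrine pancreas miRNAs, 2 of 3 were called lower in each tumor group, beside 29.3% of all miRNAs tested in TI and 25.9% in TIM. miR-216a-5p was not called in the main test, but was under 5 of 20 other settings in TI and 4 of 21 in TIM. It reached 1 CPM only in AG, TI-e and TIM-d, so it passed the filter only through AG. miR-217-5p fell by 3.97 in TI (SE 1.21, limma adjusted p = 0.010) and by 3.44 in TIM (SE 1.19, adjusted p = 0.023), and miR-216b-5p fell by 2.36 (SE 0.74, adjusted p = 0.012) and by 2.04 (SE 0.73, adjusted p = 0.027). The median of the list was -2.36 in TI and -2.04 in TIM. Without TI-e, TIM-a and TIM-d the differences of miR-217-5p were -4.68 in TI and -4.11 in TIM, and those of miR-216b-5p -2.84 and -2.44. TI-e and TIM-d stood out by these same miRNAs, so these values follow in part from that choice. The call of miR-217-5p held under 20 of 21 other settings in TI and 18 of 22 in TIM. That of miR-216b-5p held under 18 of 20 and 15 of 21. edgeR called 0 of the 3, with an adjusted p of 0.24 for miR-217-5p in TI and 0.53 in TIM. In TIM both calls were also lost without AG-a, AG-b or AG-c, and that of miR-216b-5p in TI without AG-c. The list summed to 51.1 to 73.7 CPM in AG, 0 to 74.6 CPM in TI and 0.418 to 156 CPM in TIM. Apart from TI-e and TIM-d the tumor sums reached 2.31 CPM in TI and 9.59 CPM in TIM. TI-e, at 74.6 CPM, had the highest miR-192-5p and miR-194-5p of TI but its median level of miR-122-5p. The part of tissue of other organs in the members' levels was not tested.

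None of the 5 epithelial miR-200 family members passed in either tumor group (medians 0.53 in TI and -0.92 in TIM), with sums of 50.5 to 383 CPM in AG, 15.6 to 1550 in TI and 8.44 to 359 in TIM. AG-a held both the highest miR-200 sum and the highest miR-122-5p of AG, whereas the TI library with the highest miR-200 sum, TI-c, had 9.86 CPM of miR-122-5p. The 4 erythroid miRNAs summed to 715 to 2471 CPM in AG, 344 to 4425 in TI and 172 to 2605 in TIM, with 0 called. Of 7 striated muscle miRNAs 4 were tested and 0 called, and the sums were 182 to 216 CPM in AG, 49.6 to 352 in TI and 78.1 to 22999 in TIM. Of the 2 neuroendocrine miRNAs, miR-375-3p and miR-7a-5p, 0 were called, with sums of 44909 to 107677 CPM in AG, 25729 to 246328 in TI and 32236 to 228674 in TIM. Of all miRNAs tested, 29.3% were called lower and 26.4% higher in TI, and 25.9% lower and 25.5% higher in TIM. Standard errors were wide, such as 1.45 for miR-200a-3p and 1.13 for miR-375-3p in TI, so 0 called does not show that these miRNAs were unchanged. The neuronal miRNAs, which rose as given above, summed to 367 to 592 CPM in AG, 3799 to 13346 in TI and 5079 to 18944 in TIM.

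**Figure D4:**
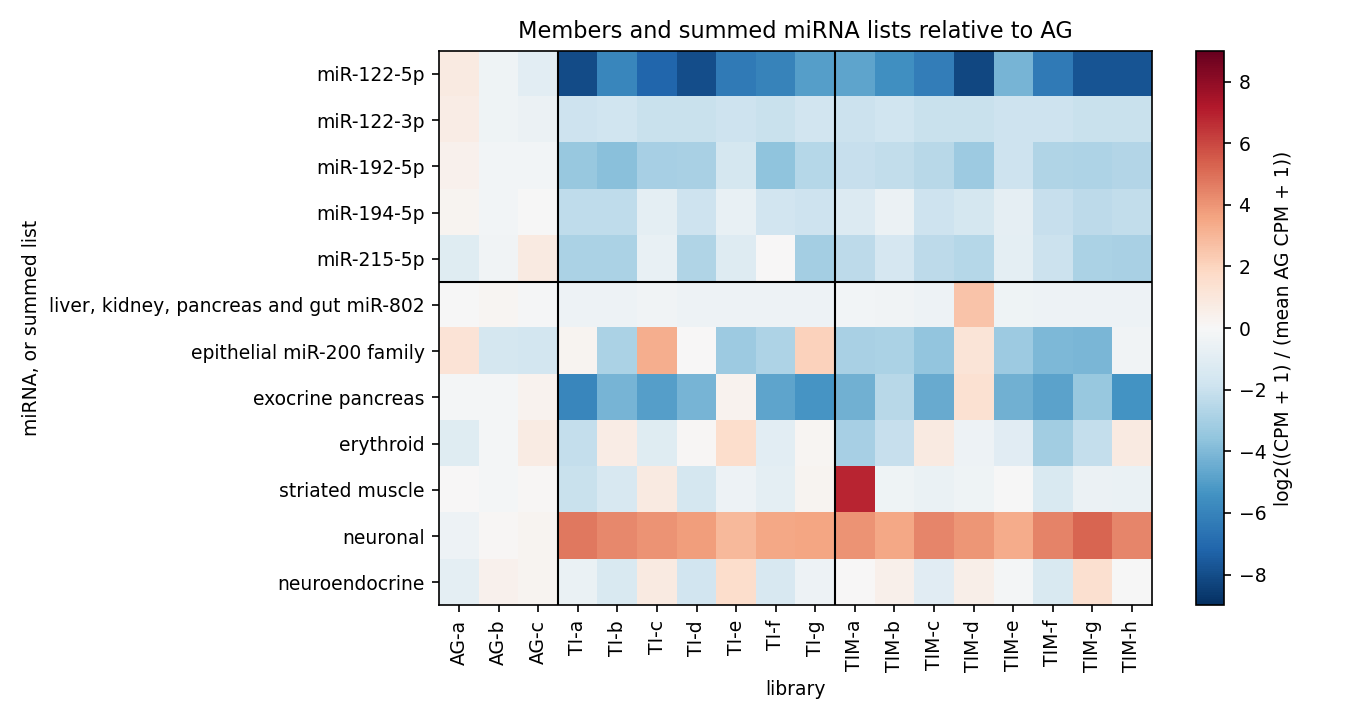
Members (upper 5 rows) and summed miRNA lists (lower 7 rows) in each of the 18 libraries, coloured by log2 of CPM + 1 over the AG mean + 1, with black lines between AG, TI and TIM. The members are below AG in nearly all tumor columns, exocrine pancreas miRNAs are near AG only in TI-e and TIM-d, and striated muscle miRNAs stand out in TIM-a.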

How the data were processed

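Small RNA libraries of 3 AG, 7 TI and 8 TIM samples were analysed. Per the submitters' processing notes, the authors trimmed reads with cutadapt 2.8, aligned them with Bowtie2 2.3.5.1 to mm10, and used featureCounts 2.0.0 and edgeR 3.40. The treatment of reads with several matches is not given in the sources used here. Each deposited value is a signal, the CPM of 1 miRNA in 1 library, which the authors computed on totals multiplied by TMM factors. The authors' own log2 fold change, p-value and FDR columns were not used. Whole reads were recovered from 100% of the values (tolerance 0.01 of a read) and served for ratios, intervals and alternative tests, in which edgeR 4.0.16 called 402 miRNAs between TI and AG, 352 between TIM and AG and 3 between the tumor groups.

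The main test was limma 3.58.1 with trend (R 4.3.3) on log2(CPM + 1), with all 18 libraries in 1 model, for 726 of 1966 miRNAs at 1 CPM or more in at least 3 libraries, calling a miRNA at a p-value under 0.05 after Benjamini-Hochberg adjustment. It was also run on simulated reads. The outcome is not given here, so that run is no support for the results. Alternatives were DESeq2 1.42.0, other pseudocounts, scalings, filters and left-out libraries. Fold differences are on the log2(CPM + 1) scale and understate changes of low miRNAs. Ratios of means are of CPM.

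The members and lists were chosen with earlier results of these data known. Named miRNAs are the members, the other strands of their hairpins, the lists, and the 5 most correlated miRNAs at a mean of at least 10 CPM for miR-122-5p and for miR-192-5p. Table columns carry a group but no mouse, so libraries were lettered in column order, and no pair was identical. That libraries of a group came from different mice is not stated in the labels, so p-values measure the spread between these samples. Sequences are from RefSeq (GRCm38.p6).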

Additional observations from a re-analysis of the deposited data

Results flagged for a closer look

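Of 40 groups of libraries checked (20 measures in TI and in TIM), 11 held a library far from the others by Dixon's ratio of gap to range. For independent, normally distributed values chance alone would give about 2. The values checked were CPM, sums and ratios on their original scale, some of which share reads, so 11 is not read as an excess. Among the members this was miR-192-5p in TI-e, at 1059 CPM against 235 to 535 CPM in the other TI libraries (ratio 0.636). Among the opposite strands, miR-194-2-3p stood apart in TI-g (ratio 0.627), at 1.60 CPM against 0.641 CPM at most, and miR-215-3p in TI-f (ratio 0.861), at 1.91 CPM against 0.264 CPM at most.

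TIM-d stood apart in the summed levels of miR-802 (ratio 0.983), the miR-200 family (ratio 0.65) and exocrine pancreas (ratio 0.941). TI-e stood apart in exocrine pancreas (ratio 0.969), and TI-c in miR-802 (ratio 1), where it held the 1 read of TI. TIM-a stood apart in striated muscle (ratio 0.995), and TIM-g in the neuronal (ratio 0.557) and neuroendocrine (ratio 0.54) sums.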

How the results depend on the processing

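No paired analysis was possible because the table's columns carry no replicate numbers. No member changed direction against AG under any of 11 other settings or when 1 library was left out. For miR-122-5p the difference ranged from -6.83 to -5.95 in TI and -6.55 to -5.60 in TIM. For miR-192-5p it ranged from -3.18 to -2.42 in TI and -2.59 to -1.88 in TIM, the last after miR-148a-3p was taken out of the totals. The same step brought miR-194-5p to -1.12 in TI and -0.99 in TIM. miR-122-3p, near the floor, followed the pseudocount and tool (-5.29 to -0.62 in TI, -6.00 to -0.63 in TIM). In TI, 4 members passed the threshold with no filter, with only the 2 groups in the model, in edgeR, in DESeq2 and with miR-148a-3p left out, each without miR-215-5p, and 4 at 10 CPM, which removes miR-122-3p. With miR-148a-3p left out, 3 passed in TIM, without miR-194-5p and miR-215-5p. Leaving out 1 library gave 3 to 5 members in TI, with 3 without AG-b or AG-c, and 3 to 5 in TIM, with 3 without AG-c. Without AG-a, AG-b or AG-c, miR-122-3p no longer passed the filter. Without TI-a, TI-b, TI-d or TI-g, miR-215-5p was not called in TI.

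Over all miRNAs, 405 were called for TI, 373 for TIM and 38 between the tumor groups. Leaving out 1 library gave 294 to 431, 227 to 383 and 24 to 68. Between TIM and TI there were 21 at a pseudocount of 5, 17 at 10 CPM, 23 with only those groups in the model, 3 in edgeR, 123 in DESeq2, 155 without the TMM factor, with 1 member among them (miR-192-5p), and 60 without TI-e, TIM-a and TIM-d. Higher calls were 25 of 38 with TMM, 138 of 155 without it and 27 of 53 with median ratio scaling. With miR-148a-3p left out they were 219 of 369 in TI (192 of 405 otherwise) and 222 of 338 in TIM (185 of 373 otherwise), and the median of all miRNAs moved from -0.01 to 0.34 and from 0.18 to 0.57. Between TIM and TI the sign of miR-194-5p differed under 6 settings, that of miR-215-5p under 2, and those of miR-122-5p and miR-122-3p under 1 each. Leaving out miR-148a-3p and the 3 libraries was chosen after seeing the data. The cause of these shifts was not tested.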
